A study of Mus musculus with 9 samples.

Results

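The mitochondrial genome of the mouse is a small circle of DNA that carries the genes for core subunits of the respiratory chain and ATP synthase, the RNAs of the mitochondrial ribosome and a set of transfer RNAs (tRNAs). Each strand is copied into long precursor transcripts, from which most messenger and ribosomal RNAs are freed by cutting out the tRNAs that lie between them. Heart muscle is rich in these transcripts because cardiomyocytes are packed with mitochondria, and every enzyme that makes, cuts or degrades the RNAs is encoded in the nucleus.

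All rows of the deposited gene table that lie on chromosome MT were taken, which gave 37 of 54532 genes: 13 protein-coding genes, 2 rRNA genes and 22 tRNA genes. By the table's strand column 28 lie on the plus strand, and mt-Nd6 and 8 tRNA genes on the minus strand. Coordinates are those of the table and equal those of the GENCODE M21 annotation of GRCm38 for all 37 genes. The labels describe right ventricular myocardium of wild-type C57BL/6 mice at postnatal day 7, in 3 groups of 3 libraries. CsA mice had a fistula made by surgery and were injected with cyclosporin A, a drug that blocks the phosphatase calcineurin and binds cyclophilins, among them the mitochondrial cyclophilin D. VO (volume overload) mice had the fistula, and Sham mice a control operation. The sources used here give neither the age at harvest nor the dose. Whether the libraries come from different mice is not stated in the labels, so p-values reflect only the spread among these libraries, which could be technical.

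The authors' deposited levels are FPKM, which divide a gene's fragments by its length and by a scale for the library. This scale was not the total of fragments assigned to genes. It was 1.04, 1.07 and 1.08 times that total in VO 1 to 3 and 1.02, 0.999 and 0.977 times in Sham 1 to 3. In CsA 1 to 3 it was 0.990, 0.956 and 1.03 times the total. Libraries held between 12046288 and 15986747 fragments assigned to genes. VO 3 stood apart: 17003 genes were above 0 in it, against 19619 to 20479 in the other 8 libraries. Fold changes and ratios of mitochondrial rows that it moved by more than 1.5 times are also given without it. Myl7, an atrial myosin light chain, reached 68.3 FPKM in CsA 3, 235 FPKM in Sham 1 and 269.7 FPKM in Sham 3, and at most 13.2 FPKM in the other 6 libraries. All 9 ventricular cardiomyocyte markers were above 0 in every library, with summed levels of 14056 to 14751 FPKM in CsA, 10086 to 17207 FPKM in VO and 13390 to 16742 FPKM in Sham. Actc1 alone gave 6492 to 9553 FPKM of these sums. Myh6 lay lower in VO without overlap, at 905, 1205 and 1088 FPKM, against 2576, 2048 and 2097 FPKM in Sham. So did Ryr2, at 59.5, 43.7 and 40.4 FPKM in VO, against 68.3, 62.6 and 79.0 FPKM in Sham. The other markers of this list overlapped between VO and Sham.

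The 5 mitochondrial transcripts that passed the test between VO and Sham were all tRNAs, and their sequences are shown for that reason, from 5′ to 3′ on the strand of the gene, with the anticodon in capitals. They come from the GENCODE transcripts, and each anticodon was the single match of its kind, preceded by t and followed by a purine, in the middle of the sequence.
mt-Th: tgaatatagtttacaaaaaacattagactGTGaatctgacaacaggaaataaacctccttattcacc
mt-Ts2: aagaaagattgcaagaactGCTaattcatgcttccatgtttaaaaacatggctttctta
mt-Tn: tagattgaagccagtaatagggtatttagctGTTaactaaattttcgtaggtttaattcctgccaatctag
mt-Tc: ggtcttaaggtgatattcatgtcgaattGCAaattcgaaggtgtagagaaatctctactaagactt
mt-Ty: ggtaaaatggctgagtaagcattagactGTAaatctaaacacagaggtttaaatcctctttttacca
The first of them, mt-Th, is the histidine tRNA (MT, 11546 to 11612, plus strand), and mt-Ts2 is the short serine tRNA that lacks a D arm (MT, 11613 to 11671, plus strand). These are direct neighbours with 0 bases between them. On the minus strand lie mt-Tn for asparagine (MT, 5089 to 5159), mt-Tc for cysteine (MT, 5192 to 5257) and mt-Ty for tyrosine (MT, 5260 to 5326). A gap of 32 bases separates mt-Tn from mt-Tc, the known place of the origin of light-strand replication, and 2 bases separate mt-Tc from mt-Ty.

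A second set of sequences bears on how fragments were counted. The nuclear genome holds copies of mitochondrial DNA, and 7 annotated genes on chromosome 1 are such copies. The copies Gm28661 of mt-Co2 (681 of 681 bases), Gm10925 of mt-Atp6 (678 of 678), Gm28437 of mt-Co3 (783 of 783) and Gm10222 of mt-Nd4l (294 of 294) are identical to the mitochondrial gene over their whole length. Gm28438 matches mt-Nd3 at 344 of 345 bases, and the only difference is T3C, counted from 1 at the first base of mt-Nd3. The first 60 bases of each are shown with that base in capitals, mt-Nd3 from MT:9459-9518 on the plus strand and Gm28438 from chr1:24613060-24613119 on the minus strand, both in GRCm38.
mt-Nd3: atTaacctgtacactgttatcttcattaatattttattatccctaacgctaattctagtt
Gm28438: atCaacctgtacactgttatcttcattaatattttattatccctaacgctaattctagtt
A fragment that lies wholly within identical sequence cannot be assigned to the mitochondrion or to chromosome 1. The sources used here do not give the submitters' treatment of multiple matches.

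Mitochondrial transcripts took up about the same share of fragments in 8 of the libraries and a smaller one in VO 3. The share was 26.3%, 25.9% and 24.8% in the CsA libraries, then 23.5%, 23.6% and 11.01% in the VO libraries and 22.2%, 24.3% and 25.3% in the Sham libraries, each given as 1 to 3, with 95% Wilson intervals of at most 0.0249 percentage points either side, which cover counting error only. The CsA libraries lay above the VO libraries without overlap, and CsA and Sham overlapped. CsA averaged 25.7 ± 0.795%, VO 19.4 ± 7.23% and Sham 23.9 ± 1.60% (SD, n = 3 each). The difference was 6.33 percentage points for CsA minus VO (exact permutation test, two-sided p = 0.1, the smallest 3 against 3 libraries can give) and -4.57 points for VO minus Sham (exact permutation p = 0.4). Without VO 3 these differences were 2.16 and -0.398 points. CsA minus Sham gave 1.76 points (exact permutation p = 0.2).

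In bulk tissue, fewer cells of a type and less RNA per cell cannot be told apart, and VO 3 also differed in its erythroid transcripts. The 5 erythroid markers, all above 0 in every library, summed to 2038 FPKM in VO 3, against 591 to 1039 FPKM in the other 8. Other markers were at an extreme in VO 3 too. The ventricular cardiomyocyte sum was highest there, at 17207 FPKM against 10086 to 16742 FPKM, though Ttn of that list was lowest, at 12.5 against 24.2 to 36.0 FPKM. Fabp4, a marker of capillaries and fat, was at 456 FPKM in VO 3, against 111 to 175 FPKM elsewhere. Cd36, the other marker of that list, was not at an extreme, at 934 FPKM in VO 3 against 587 to 942 FPKM elsewhere. The make-up of the mitochondrial fragments of VO 3 differed as well. In it mt-Nd5 took 3.69% of mitochondrial fragments, against 10.99% to 13.53% elsewhere, and mt-Co1 took 45.2%, against 37.9% to 40.9%. The 2 rRNAs took 5.03% in VO 3, against 1.85% to 2.94% in the other libraries. The part of blood cells or of other cell types in these values was not tested.

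**Figure D1:**
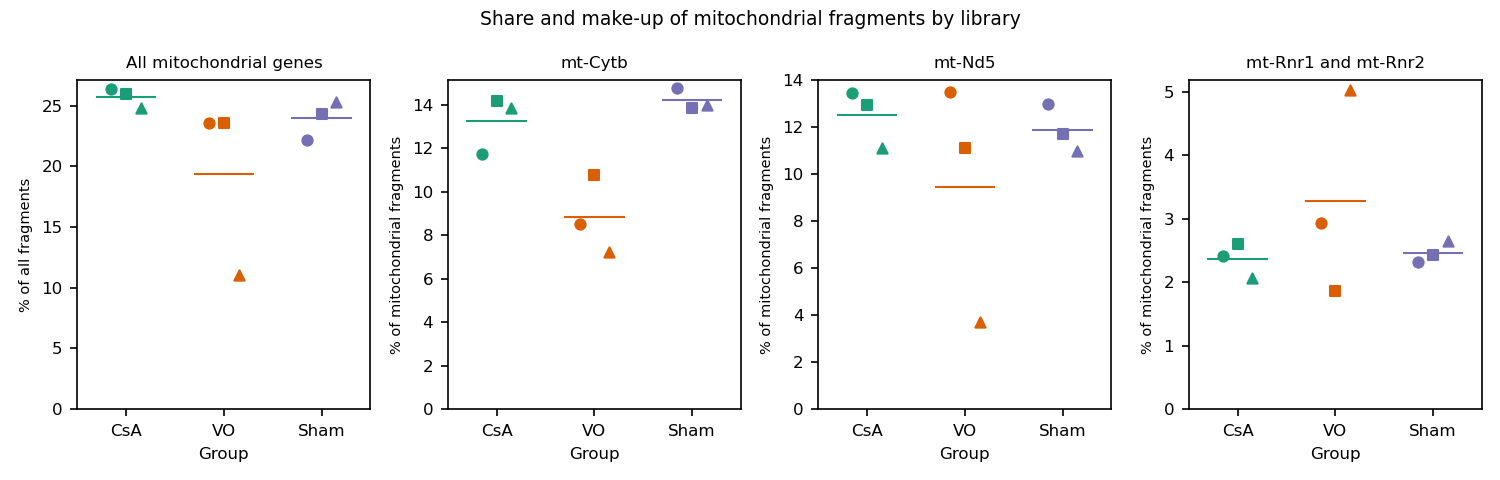
Panels from left to right show the percent of all assigned fragments that fell on mitochondrial genes, then the percent of mitochondrial fragments on mt-Cytb, on mt-Nd5 and on the 2 rRNAs, by group on the x axis. Circles, squares and triangles are libraries 1, 2 and 3 and lines are group means; VO 3, the triangle in VO, lies lowest in the first 3 panels (11.01%, 7.24% and 3.69%) and highest in the last (5.03%).

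Among the protein-coding genes, levels per length differed by orders of magnitude within each library. Averaged over the 9 libraries, mt-Co1, the catalytic subunit of cytochrome oxidase, was highest at 59323 FPKM and was above the next gene in 9 of 9 libraries. It was followed by mt-Cytb, the mitochondrial subunit of complex III, at 24797 FPKM and by the complex I subunits mt-Nd1 at 22577, mt-Nd6 at 17970, mt-Nd2 at 17452, mt-Nd5 at 14737 and mt-Nd4 at 12415 FPKM. The order of neighbours in this series was not fixed: mt-Cytb exceeded mt-Nd1 in 6 of 9 libraries, and mt-Nd6 exceeded mt-Nd2 in 6 of 9.

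The other protein-coding genes lay lower. Cytochrome oxidase subunits mt-Co3 and mt-Co2 averaged 3598 and 3218 FPKM, and the ATP synthase subunit mt-Atp6 3181 FPKM. These 3 overlapped: mt-Co3 exceeded mt-Co2 in 5 of 9 libraries and mt-Co2 exceeded mt-Atp6 in 3 of 9. The complex I subunits mt-Nd4l and mt-Nd3 averaged 1524 and 631 FPKM. Lowest was mt-Atp8, the short ATP synthase subunit whose gene shares 43 bases with mt-Atp6, at 42.5 FPKM.

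The 5 genes mt-Co2, mt-Atp6, mt-Co3, mt-Nd3 and mt-Nd4l are those with the most sequence in common with annotated nuclear transcripts. Of all stretches of 50 bases in them, between 97.99% and 100% also occur in such a transcript, mostly in the chromosome 1 copies. The share was 62.2% for mt-Nd4, 51.1% for mt-Co1, at most 8.19% for mt-Nd2 and mt-Nd5, and 0% for mt-Cytb, mt-Nd1, mt-Nd6 and mt-Atp8. Copies outside annotated transcripts were not searched, so the 0% of mt-Atp8 says only that no annotated transcript holds it. Fragments were listed for the copies too: Gm28661 averaged 2141 FPKM, Gm10925 1864 FPKM, Gm28437 1126 FPKM, Gm10222 564 FPKM and Gm28438 159 FPKM. The remaining copies were Gm29216, part of mt-Co1, at 2513 FPKM and Gm28439, part of mt-Nd4, at 493 FPKM. None of the 7 copies passed the test in any comparison; the limma adjusted p was at least 0.167 for VO against Sham and at least 0.233 for CsA against VO, and 1 for CsA against Sham.

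**Figure D2:**
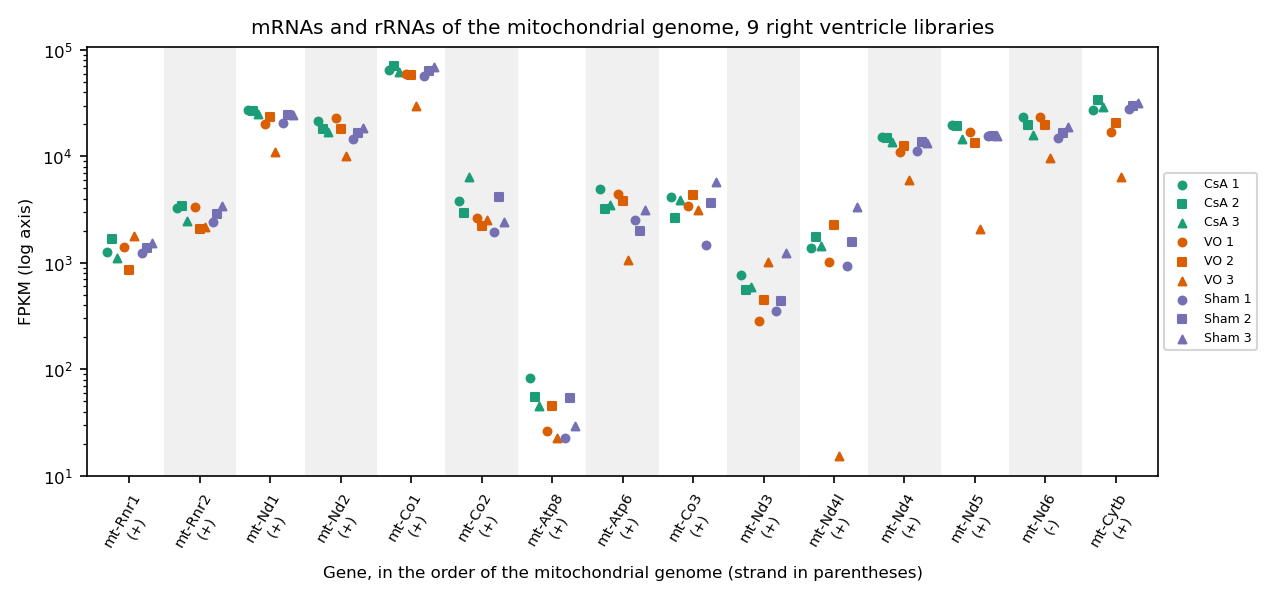
FPKM on a log axis for the 2 rRNAs and 13 mRNAs in genome order, strand in parentheses; green, orange and purple are CsA, VO and Sham, and circles, squares and triangles are libraries 1, 2 and 3. By the mean over libraries the highest gene is mt-Co1 and the lowest mt-Atp8, though in VO 3 mt-Nd4l lies below mt-Atp8 (22.7 FPKM). The orange triangle of VO 3 lies far below the other libraries for mt-Nd4l (15.2 FPKM) and mt-Nd5 (2068 FPKM).

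The comparison of VO with Sham asked what the fistula operation changes in right ventricular transcripts. No protein-coding or rRNA gene of the mitochondrion passed the test, while 5 tRNAs did: mt-Th and mt-Ts2 rose, and mt-Ty, mt-Tn and mt-Tc fell. The test was limma on log2(FPKM + 1) over every gene averaging 0.5 FPKM or more, at a Benjamini-Hochberg adjusted p under 0.05; fold changes are on that scale and understate those of low genes. Of the 37 genes 34 met the filter, and the 5 called are 14.7% of these, beside 4.76% of all 13477 genes tested, of which 275 (2.04%) were higher and 367 (2.72%) lower. Over all genes the split was 212 higher and 541 lower after rescaling without mitochondrial genes, and 605 higher and 405 lower by voom on recovered fragments. The median log2 fold change of the 34 was -0.40, and 27 lay below 0; over all genes tested the median was 0.00276. Without VO 3 the median of the 34 was -0.16 and 23 lay below 0.

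The histidine tRNA mt-Th stood at 178, 91.4 and 265 FPKM in VO 1 to 3, against 31.7, 36.5 and 19.6 FPKM in Sham 1 to 3. These values rest on 190, 79 and 306 fragments in VO and 31, 34 and 17 in Sham. Every VO library lay above every Sham library, with a fitted log2 change of 2.48 ± 0.38 (SE; limma adjusted p = 0.0382). Its neighbour mt-Ts2 stood at 502, 247 and 856 FPKM in VO, against 94.1, 160 and 69.3 FPKM in Sham. The groups did not overlap, and the log2 fold change was 2.21 ± 0.45 (limma adjusted p = 0.0403). Next in line, mt-Tl2, a leucine tRNA, stood at 299, 253 and 229 FPKM in VO, against 169, 240.03 and 159 FPKM in Sham, and its groups overlapped (limma adjusted p = 0.218).

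On the minus strand, mt-Ty stood at 128, 60.2 and 14.7 FPKM in VO, against 571, 362 and 889 FPKM in Sham. The VO libraries lay lower without overlap, with a fitted log2 change of -3.51 ± 0.73 (limma adjusted p = 0.0406). The asparagine tRNA mt-Tn stood at 216, 170.3 and 64.5 FPKM in VO, against 1279, 1129 and 471 FPKM in Sham, a fitted log2 change of -2.71 ± 0.58 (limma adjusted p = 0.0408). For mt-Tc, the second most abundant tRNA row, values were 1106, 599 and 228 FPKM in VO, against 2923, 2567 and 4702 FPKM in Sham, a fitted log2 change of -2.62 ± 0.57 (limma adjusted p = 0.0408). In both of these the groups did not overlap. Without VO 3 all 5 were still called, with log2 fold changes of 2.13 for mt-Th, 1.79 for mt-Ts2, -2.68 for mt-Ty, -2.19 for mt-Tn and -2.01 for mt-Tc.

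Whether these tRNAs were called changed with the libraries in the fit and with other settings. Left out one at a time, VO 1, Sham 1, Sham 3, CsA 1 and CsA 3 each left 0 of the 34 called by limma, Sham 2 left 1, VO 2 left 4, CsA 2 gave 6 and VO 3 gave 7. Of all 13477 genes, the first 5 fits called 0 or 1, and those without Sham 2, VO 2, CsA 2 and VO 3 called 69, 793, 761 and 2032. Without VO 3 the members' share was thus 20.6%, beside 15.1% of all genes. With all 9 libraries kept, limma also called 0 members when low genes were kept and when replicate number was a block. When low genes were kept, 7 of 35 members and 4599 of all 26573 genes had an unadjusted limma p under 0.05. With the block these were 9 of 34 members and 3503 of all 13477 genes, and in the main fit 10 of 34 and 3949 of 13477. With only the VO and Sham libraries fitted limma called 0. There 7 of 34 members and 3357 of all 13477 genes had an unadjusted limma p under 0.05. The 5 tRNAs kept their direction in all 22 alternatives to the processing, with log2 fold changes between 1.93 and 2.89 for mt-Th and between -4.20 and -2.68 for mt-Ty. After removal of each library's trend with GC content, 0 of the 34 and 0 of all genes were called by limma, with 17 of the 34 and 2864 of all 13477 genes at an unadjusted p under 0.05; voom on recovered fragments called 5 members and 1010 genes in all.

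Sums over neighbouring tRNA genes were taken for 4 stretches of the genome, of which the first 2 described hold the called tRNAs and so restate them. In the row from mt-Tw to mt-Ty, the tRNAs for tryptophan, alanine, asparagine, cysteine and tyrosine, fragments per 1000000 mitochondrial fragments were 640, 1595 and 910 for CsA, 565, 377 and 246 for VO, and 1617, 1264 and 1779 for Sham, each given as libraries 1 to 3. All 3 VO libraries lay below every CsA and Sham library. In the row from mt-Th to mt-Tl2 the sums were 131, 82.2 and 108 in CsA, 277, 176 and 828 in VO, and 90.6, 119 and 64.3 in Sham, and all 3 VO libraries lay above the rest. The low mitochondrial total of VO 3 is the denominator of its sums here. In FPKM the sums from mt-Th to mt-Tl2 were 526, 335 and 392 in CsA, 979, 592 and 1350.05 in VO and 295, 436 and 248 in Sham, so VO lay highest on that scale too, with VO 3 less far from VO 1.

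In the other 2 stretches VO did not stand apart from both other groups. For mt-Ti to mt-Tm, the tRNAs for isoleucine, glutamine and methionine, the sums per 1000000 mitochondrial fragments were 27.7, 27.1 and 21.9 in CsA, 25.7, 17.6 and 17.6 in VO and 35.4, 16.3 and 46.7 in Sham, and all groups overlapped with VO. For mt-Tt and mt-Tp, threonine and proline, they were 1136, 799 and 812 in CsA, 2055, 1084 and 2352 in VO and 783, 899.8 and 832 in Sham. Here VO lay above Sham without overlap, and CsA 1 lay above VO 2.

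**Figure D3:**
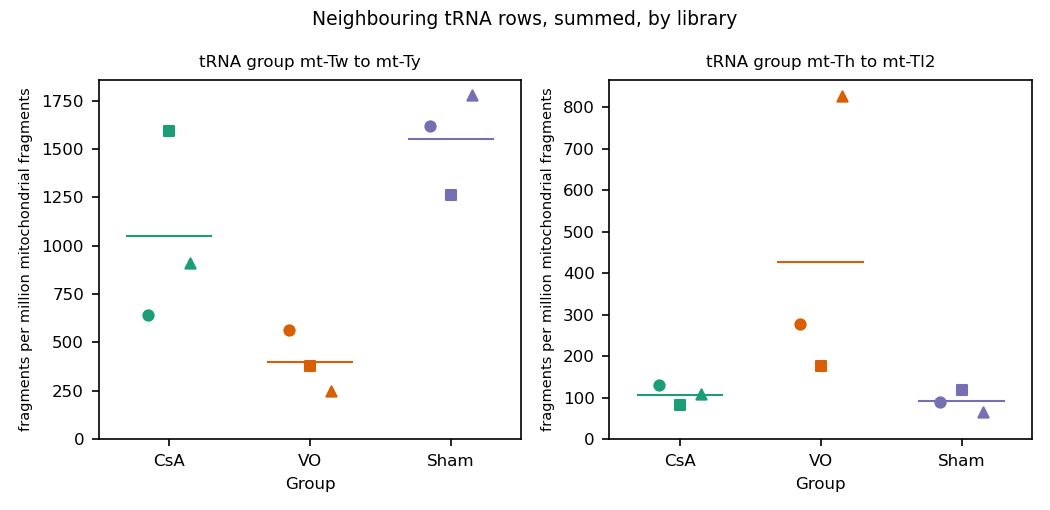
Fragments per 1000000 mitochondrial fragments, summed over the 5 neighbouring tRNA genes from mt-Tw to mt-Ty (left) and the 3 from mt-Th to mt-Tl2 (right), by group on the x axis; circles, squares and triangles are libraries 1, 2 and 3 and lines are group means. VO libraries are the lowest 3 on the left (246 to 565) and the highest 3 on the right (176 to 828).

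The other tRNA genes ranged widely. Proline tRNA mt-Tp was the most abundant tRNA row, at 6955, 3561 and 3585 FPKM in VO, against 2536, 3264 and 3219 FPKM in Sham. VO lay higher without overlap, but the log2 fold change of 0.58 ± 0.35 did not pass the test (limma adjusted p = 0.295). The third in abundance, the glutamate tRNA mt-Te, stood at 981, 699 and 71.5 FPKM in VO, against 1454, 863 and 2541 FPKM in Sham, with overlapping groups (log2 fold change -2.001 ± 0.86, limma adjusted p = 0.156; -0.83 without VO 3). The glycine tRNA mt-Tg, at 18.5, 13.7 and 16.2 FPKM in VO against 32.3, 31.7 and 45.4 FPKM in Sham, missed the threshold (log2 fold change -1.12 ± 0.27, limma adjusted p = 0.0502), and without VO 3 it passed (limma adjusted p = 0.0479).

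Several tRNA genes had libraries with no fragment. The phenylalanine tRNA mt-Tf and the aspartate tRNA mt-Td had 0 fragments in all 9 libraries, which allows up to 3.698 and 3.593 FPKM at 3 counts in the library of least depth. The valine tRNA mt-Tv was at 0 in 6 libraries and at most 1.17 FPKM, lysine mt-Tk at 0 in 3 and at most 3.52 FPKM, and threonine mt-Tt at 0 in 5 and at most 3.22 FPKM. Methionine mt-Tm and alanine mt-Ta were at 0 in VO 3 only, where 3 counts would be 2.52 FPKM. Before fold changes, mt-Tm stood at 14.6, 10.1 and 0 FPKM in VO and 31.8, 13.5 and 67.1 FPKM in Sham, and mt-Ta at 13.6, 14.6 and 0 FPKM in VO and 19.9, 23.97 and 42.5 FPKM in Sham; neither passed the test (limma adjusted p = 0.118 and 0.17).

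The remaining 7 tRNA genes, mt-Tl1, mt-Ti, mt-Tq, mt-Tw, mt-Ts1, mt-Tr and mt-Tl2, ranged in single libraries from 1.82 FPKM (mt-Ts1 in VO 1) to 822 FPKM (mt-Tw in Sham 3). None of them passed the test in any comparison. All 22 tRNA genes together took between 0.205% and 0.360% of mitochondrial fragments. A tRNA gene is 59 to 75 bases long and borders or overlaps its neighbours, so a fragment on its row can also come from a longer precursor; the rows do not tell mature tRNA from precursor, and the sources used here do not say whether counting took account of strand, so transcripts of opposite strands cannot be told apart.

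**Figure D4:**
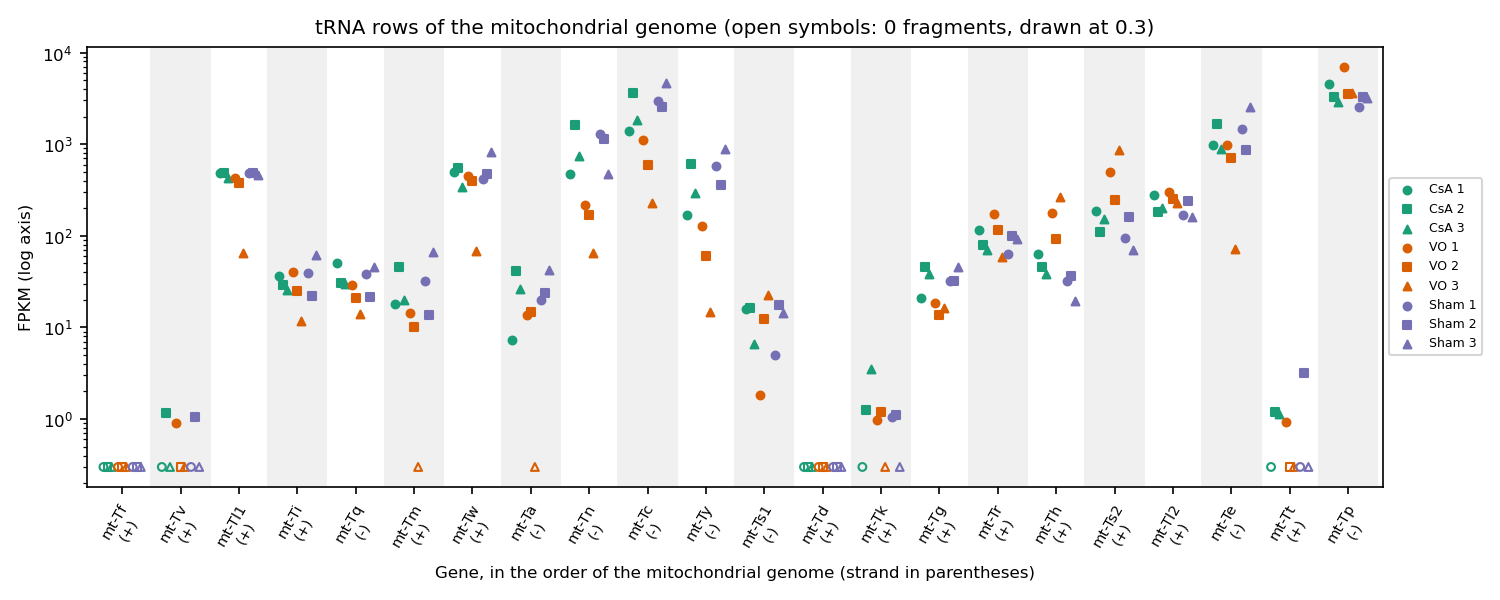
FPKM on a log axis for the 22 tRNA genes in genome order, strand in parentheses; green, orange and purple are CsA, VO and Sham, circles, squares and triangles are libraries 1, 2 and 3, and open symbols mark libraries with 0 fragments. Orange VO points lie below the others for mt-Tn, mt-Tc and mt-Ty and above them for mt-Th and mt-Ts2.

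Of the mRNAs, mt-Cytb was the only gene whose VO and Sham libraries did not overlap. It stood at 16901, 20675 and 6462 FPKM in VO 1 to 3, against 28020, 29455 and 31742 FPKM in Sham 1 to 3, and the log2 fold change of -1.18 ± 0.48 did not pass the test (limma adjusted p = 0.142). Without VO 3 it was -0.67 ± 0.19 and passed (limma adjusted p = 0.0484). As a share of mitochondrial fragments mt-Cytb took 8.53%, 10.75% and 7.24% in VO, against 14.76%, 13.85% and 14.01% in Sham. In all, 10 of the 34 genes tested did not overlap between VO and Sham, 3 higher and 7 lower, which is 29.4%, beside 33.1% of all genes tested (16.2% higher and 17% lower). The lower 7 were mt-Ty, mt-Tn, mt-Tc, mt-Tg, mt-Ta, mt-Tl1 and mt-Cytb and the higher 3 mt-Th, mt-Ts2 and mt-Tp.

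Subunits of complex I, which takes electrons from NADH and pumps protons, had overlapping groups. For mt-Nd1 the levels were 20281, 23651 and 10924 FPKM in VO, against 20806, 24579 and 24380 FPKM in Sham. For mt-Nd2 they were 22868, 18119 and 9994 FPKM in VO, against 14523, 16633 and 18557 FPKM in Sham. In both genes VO 3 was the lowest library and the log2 fold changes of -0.42 and -0.04 did not pass the test (limma adjusted p = 0.529 and 0.962). Without VO 3 they were -0.0824 for mt-Nd1 and 0.30 for mt-Nd2.

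Downstream on the same strand, mt-Nd4 stood at 10962, 12633 and 6003 FPKM in VO, against 11343, 13605 and 13455 FPKM in Sham. Its partly overlapping neighbour mt-Nd4l stood at 1012, 2270.1 and 15.2 FPKM in VO, against 928, 1571 and 3361 FPKM in Sham. The single low value of VO 3 sets the fitted log2 fold change of mt-Nd4l, which was -2.35 ± 1.48 with it and -0.16 ± 0.52 without it (limma adjusted p = 0.317 and 0.835). The chromosome 1 copy Gm10222, identical to mt-Nd4l, was also low in VO 3, at 8.68 FPKM, against 203 to 1418 FPKM in the other libraries. Gm28439, the copy of mt-Nd4, was at 29.9 FPKM in VO 3, against 366 to 1005 FPKM in the other libraries.

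For mt-Nd5, levels were 16819, 13392 and 2068 FPKM in VO, against 15464, 15626 and 15624 FPKM in Sham. Its log2 fold change was -1.01 ± 0.70 (limma adjusted p = 0.361), and -0.05 ± 0.20 without VO 3. For mt-Nd3 they were 284, 452 and 1011 FPKM in VO, against 350.05, 436 and 1225 FPKM in Sham, so here VO 3 was the highest VO library.

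Cytochrome oxidase and ATP synthase subunits also overlapped between VO and Sham. For mt-Co1 levels were 58980.2, 58304 and 29853 FPKM in VO, against 57073, 63943 and 68590.4 FPKM in Sham, with a fitted log2 change of -0.43 ± 0.47 (limma adjusted p = 0.574; -0.10 ± 0.18 without VO 3). For mt-Co2 they were 2626, 2195 and 2545 FPKM in VO, against 1962, 4123 and 2411 FPKM in Sham, and for mt-Co3 3440.01, 4303 and 3117 FPKM in VO, against 1469, 3619 and 5711 FPKM in Sham. Sham 1 was the lowest library in both mt-Co2 and mt-Co3; among the VO libraries the lowest was VO 2 in mt-Co2 and VO 3 in mt-Co3. For mt-Atp6 they were 4452, 3838 and 1062 FPKM in VO, against 2533, 1978 and 3106 FPKM in Sham, and for mt-Atp8 26.1, 45.6 and 22.7 FPKM in VO, against 22.9, 53.2 and 29.5 FPKM in Sham.

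Over the 9 libraries the highest level was 2.10 times the lowest for mt-Rnr1, 1.67 times for mt-Rnr2, and 2.29 times or more for every mRNA. This order rested in part on VO 3. In the libraries other than VO 3, mt-Rnr1 ranged from 853 to 1682 FPKM and mt-Rnr2 from 2064 to 3446 FPKM. There mt-Co1 ranged from 57073 to 69912 FPKM and mt-Nd5 from 13392 to 19663 FPKM, so the rRNAs did not spread less than these mRNAs. The range of mt-Co2 remained wider, from 1962 to 6369 FPKM. The labels do not say whether polyadenylated RNA was selected or rRNA removed, so levels of rRNA and tRNA relative to mRNA are those of the libraries and not of the tissue. The large rRNA mt-Rnr2 stood at 3362, 2064 and 2165 FPKM in VO, against 2439, 2906 and 3415 FPKM in Sham (log2 fold change -0.23 ± 0.30, limma adjusted p = 0.647; -0.14 without VO 3). The small rRNA mt-Rnr1 stood at 1405, 853 and 1794 FPKM in VO, against 1238, 1373 and 1545 FPKM in Sham (log2 fold change -0.10 ± 0.31, limma adjusted p = 0.864; -0.33 without VO 3). The log2 ratio of summed rRNA to summed mRNA levels was -5.19 ± 0.78 in VO and -5.47 ± 0.07 in Sham (SD, n = 3; exact permutation p = 0.7); the difference of 0.27 was -0.13 without VO 3. The log2 ratio of tRNA to mRNA fragments was -8.36 ± 0.47 in VO and -8.27 ± 0.20 in Sham (exact permutation p = 0.9); the difference of -0.0893 was -0.25 without VO 3.

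The only mRNA annotated on the minus strand is mt-Nd6, a complex I subunit. Without knowledge of strand in the counting, its row can also hold fragments of plus-strand precursors, and its ratio to other rows is not a comparison of strands. It stood at 23207, 19579 and 9580.1 FPKM in VO, against 14915, 16419 and 19024 FPKM in Sham, and these groups overlapped. The ratio of mt-Nd6 to the summed levels of the other 12 mRNAs was, on the log2 scale, -2.77, -3.03 and -2.93 in VO, against -3.37, -3.42 and -3.31 in Sham. Every VO library lay higher in this ratio, VO 3 included, with a mean difference of 0.45 (exact permutation p = 0.1, the smallest possible); without VO 3 the difference was 0.46. In CsA the ratio was -3.02, -3.30 and -3.49, and its difference was -0.36 to VO (exact permutation p = 0.2) and 0.10 to Sham (exact permutation p = 0.6).

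Values of other kinds differed between VO and Sham beside these. Nuclear genes with the GC content of the mitochondrial mRNAs, 31.9% to 41.1%, had a median log2 fold change of 0.36 in VO against Sham (1333 genes), of opposite sign to the median of the mitochondrial genes. The 5 endothelial markers, all above 0 in every library, summed to 181 to 200 FPKM in VO, against 245 to 278 FPKM in Sham. The 5 fibroblast markers, also all above 0, summed to 472 to 597 FPKM in VO, against 354 to 445 FPKM in Sham. Single markers did not all follow these sums. Of the fibroblast markers, Lum, a matrix proteoglycan, lay higher without overlap in VO, at 178, 151 and 182 FPKM, against 90.98, 95.9 and 93.8 FPKM in Sham, while Col1a1, a collagen chain, was at 88.7, 131 and 68.9 FPKM in VO, against 179, 121 and 150.5 FPKM in Sham. Among endothelial markers Kdr, a VEGF receptor, was at 42.5, 39.95 and 35.4 FPKM in VO, against 33.7, 36.8 and 34.8 FPKM in Sham. The part of cell content and of GC content in the mitochondrial results was not tested beyond the fit with the GC trend removed. In that fit the median log2 fold change of the 34 mitochondrial genes was -0.77, with 3 above 0. In the main fit it was -0.40, with 7 above 0.

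The comparison of CsA with VO asked how the transcripts differ when cyclosporin A is given with the fistula. None of the 34 mitochondrial genes passed the test, and neither did any of the 13477 genes tested (0%); at an unadjusted p under 0.05 there were 10 mitochondrial genes and 2219 genes in all by limma, and voom called 0. The median log2 fold change of the 34 was 0.56 and 28 lay above 0, beside a median of -0.00134 over all genes; without VO 3 the median was 0.25 and 23 lay above 0. CsA and VO libraries did not overlap for 14 of the 34 (41.2%), 12 higher and 2 lower in CsA, beside 21.2% of all genes tested (10.9% higher and 10.3% lower). Nuclear genes of the same GC range had a median of -0.21.

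The 5 tRNAs called in VO against Sham had fold changes of the other sign here; both comparisons use the same VO libraries, so the values are set side by side as a description. In CsA 1 to 3, mt-Th stood at 62.6, 45.9 and 38.7 FPKM and mt-Ts2 at 185, 109.6 and 151 FPKM, below every VO library (log2 fold changes -1.74 ± 0.38 and -1.70 ± 0.45, limma adjusted p = 0.204 and 0.211). Higher than in every VO library were mt-Ty, at 168, 602 and 293 FPKM, mt-Tn, at 476, 1613 and 751 FPKM, and mt-Tc, at 1382, 3602 and 1835 FPKM. Their log2 fold changes were 2.64 ± 0.73, 2.63 ± 0.58 and 1.97 ± 0.57 (limma adjusted p = 0.211, 0.204 and 0.214). In these 3 genes CsA 2 was far above CsA 1 and CsA 3.

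**Figure D5:**
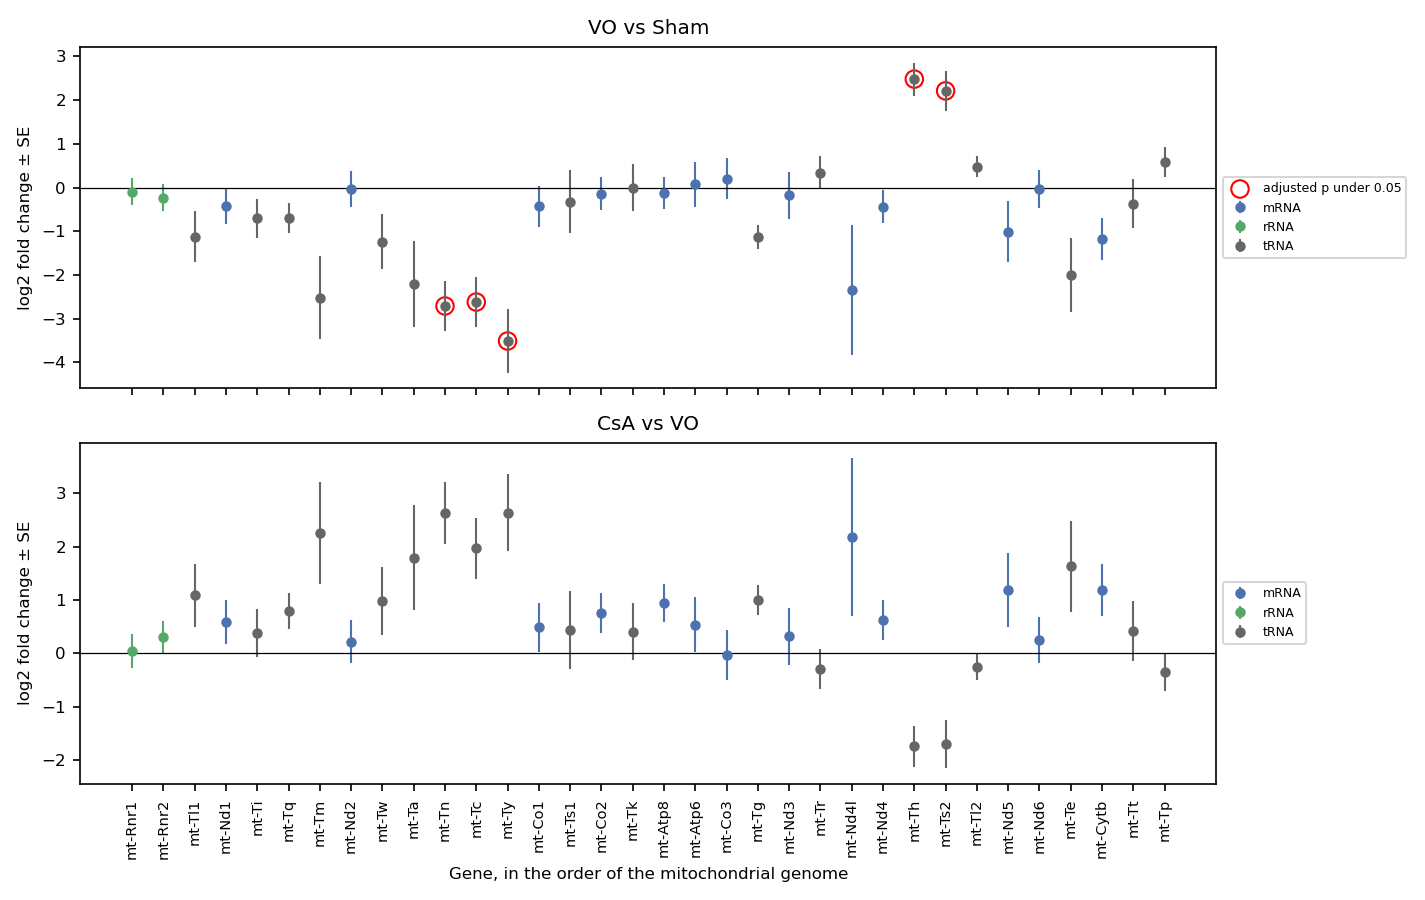
Fitted log2 fold changes on the log2(FPKM + 1) scale with their standard errors for the 34 mitochondrial genes tested, in genome order, for VO against Sham (top) and CsA against VO (bottom); blue, green and grey mark mRNA, rRNA and tRNA, and red rings an adjusted p under 0.05. The ringed genes are mt-Tn, mt-Tc and mt-Ty below 0 and mt-Th and mt-Ts2 above 0 in the upper panel, and the lower panel, which shares the VO libraries, has no ring.

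Of the mRNAs, 5 did not overlap between CsA and VO, all higher in CsA: mt-Cytb, mt-Nd1, mt-Nd4, mt-Co1 and mt-Co2. In CsA 1 to 3, mt-Cytb stood at 27258, 33591 and 29070 FPKM (log2 fold change to VO 1.19 ± 0.48, limma adjusted p = 0.271; 0.68 without VO 3). Levels in CsA were 27097, 26627 and 24844 FPKM for mt-Nd1, 15138, 14819 and 13780 FPKM for mt-Nd4 and 65161, 69912 and 62090 FPKM for mt-Co1, with log2 fold changes to VO of 0.59, 0.63 and 0.49. Without VO 3 they were 0.26, 0.31 and 0.16. For mt-Co2 they were 3783, 2946 and 6369 FPKM, a log2 fold change of 0.76 ± 0.38. None of these passed the test (limma adjusted p between 0.271 and 0.618).

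The other mRNAs overlapped between CsA and VO. In CsA 1 to 3, mt-Nd2 stood at 21425, 18021 and 16928 FPKM, mt-Nd5 at 19663, 19303 and 14674 FPKM, and mt-Nd6 at 23539, 19677 and 15788 FPKM. For mt-Nd3 the levels were 768, 560.3 and 589 FPKM, for mt-Nd4l 1374, 1760 and 1426 FPKM and for mt-Co3 4164, 2665 and 3897 FPKM. For mt-Atp6 they were 4992, 3186 and 3484 FPKM and for mt-Atp8 83.01, 54.7 and 44.8 FPKM. Small rRNA mt-Rnr1 stood at 1276, 1682 and 1106 FPKM and large rRNA mt-Rnr2 at 3295, 3446 and 2473 FPKM, and the log2 ratio of rRNA to mRNA was -5.56 ± 0.19 in CsA and -5.19 ± 0.78 in VO (SD, n = 3; exact permutation p = 0.6; the difference of -0.37 was 0.04 without VO 3). The log2 ratio of tRNA to mRNA fragments was -8.57 ± 0.25 in CsA and -8.36 ± 0.47 in VO (exact permutation p = 0.6; the difference of -0.21 was -0.0506 without VO 3).

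The comparison of CsA with Sham, which shares its libraries with the other 2 comparisons, asked how far the treated fistula group lay from the control operation. No mitochondrial gene passed the test, and neither did any of the 13477 genes (0%; limma, 200 at an unadjusted p under 0.05, and voom called 0). The median log2 fold change of the 34 was 0.09, beside 0.00126 over all genes, and that of nuclear genes in the same GC range was 0.14. CsA and Sham did not overlap for 4 of the 34 genes (11.8%), beside 9.74% of all genes tested (4.8% higher and 4.94% lower): mt-Nd1, mt-Nd4, mt-Atp6 and mt-Th, all higher in CsA. The log2 fold change of mt-Th was 0.74 ± 0.38 and that of mt-Atp6 0.61 ± 0.51 (limma adjusted p = 1 for both). The smallest unadjusted p among the 34 was that of mt-Atp8, with a log2 fold change of 0.81 ± 0.36 and overlapping groups (limma adjusted p = 1). The log2 ratios of rRNA to mRNA and of tRNA to mRNA differed by -0.09 (exact permutation p = 0.5) and -0.30 (exact permutation p = 0.2).

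Nuclear genes that serve the mitochondrial genome were read from 7 lists. In VO against Sham, 7 of 137 members tested passed (5.11%), 1 higher and 6 lower, a share near the 4.76% of all genes tested. Of the members, 0 passed in CsA against VO or CsA against Sham by limma, and voom called 0 in both. At an unadjusted limma p under 0.05 there were 25 and 2 of the 137, beside 2219 and 200 of all 13477 genes. Transcription and nucleoid factors had 1 of 13 higher and none lower, with a median log2 fold change of 0.15. The gene was Mterf3, a member of the termination factor family known in mouse as a repressor of mitochondrial transcription, at 12.2, 7.39 and 11.8 FPKM in VO, against 5.33, 5.46 and 6.06 FPKM in Sham, without overlap (log2 fold change 0.76 ± 0.18, limma adjusted p = 0.0456). Polrmt, the mitochondrial RNA polymerase, stood at 2.79, 4.34 and 4.36 FPKM in VO, against 6.64, 5.77 and 6.74 FPKM in Sham, and did not pass (log2 fold change -0.63 ± 0.17, limma adjusted p = 0.0551).

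Of 15 genes of mitochondrial RNA stability and decay, 1 fell and none rose, with a median of 0.28. It was Fastk, a member of the family of mitochondrial RNA-binding proteins one of whose forms is needed for mt-Nd6 mRNA, at 13.99, 20.2 and 14.6 FPKM in VO, against 33.7, 30.3 and 36.1 FPKM in Sham (log2 fold change -1.01 ± 0.19, limma adjusted p = 0.0389). Fastkd2, needed for the large rRNA, stood at 9.45, 7.97 and 8.17 FPKM in VO, against 5.26, 5.74 and 5.45 FPKM in Sham, and did not pass (limma adjusted p = 0.0511). Both did not overlap between the groups. In the 23 genes of RNA processing and modification, which include the enzymes that cut and modify tRNAs, 0 passed (median 0.13). The smallest p there was that of Mrm1, an rRNA methyltransferase, at 8.58, 7.79 and 11.5 FPKM in VO, against 5.76, 5.32 and 6.16 FPKM in Sham, with Mrm3, another, next. In the 16 genes of mitochondrial DNA replication 0 passed (median 0.03), with Ssbp1, the single-stranded DNA-binding protein, and Exog, a nuclease, at the smallest p.

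Among 14 regulators of biogenesis 1 fell, Esrra, a nuclear receptor of energy metabolism genes, at 15.5, 24.001 and 21.6 FPKM in VO, against 36.7, 34.4 and 33.7 FPKM in Sham (log2 fold change -0.77 ± 0.17, limma adjusted p = 0.0422; list median -0.02); Ppard, a fatty acid receptor, had the next smallest p. Among 16 abundant mitochondrial proteins 1 fell and none rose (list median 0.15). Vdac3, a channel of the outer membrane, stood at 78.02, 65.6 and 132 FPKM in VO, against 45.2, 48.4 and 42.2 FPKM in Sham, and did not pass (limma adjusted p = 0.0516).

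The list of 40 nuclear subunits of oxidative phosphorylation, which assemble with the proteins of the mitochondrial genome, had 3 lower and none higher. Its median was -0.12. Of the nuclear subunits of complex I the list held only the core ones. Levels of the ATP synthase subunit Atp5k were 7.84, 16.99 and 22.6 FPKM in VO, against 107, 75.6 and 86.8 FPKM in Sham (log2 fold change -2.53 ± 0.40, limma adjusted p = 0.0382). The heart form of a cytochrome oxidase subunit, Cox8b, stood at 33.8, 104 and 167 FPKM in VO, against 501, 391 and 495 FPKM in Sham (log2 fold change -2.44 ± 0.52, limma adjusted p = 0.0408). Atp5o, a stalk subunit of ATP synthase, had a fitted log2 change of -1.73 ± 0.38 (limma adjusted p = 0.0408). All 3 lay lower in every VO library than in every Sham library. Without VO 3, 35 of the 137 passed (25.5%), 6 higher and 29 lower, beside 2032 of all 13477 genes (15.1%), 941 higher and 1091 lower. The call count was 0 without VO 1, Sham 1, Sham 2, Sham 3, CsA 1 or CsA 3, and 9 and 8 without VO 2 and CsA 2, where 793 and 761 of all genes passed.

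In CsA against VO and CsA against Sham the members with the smallest p in each list did not pass. For transcription factors these were Mterf3 and Tfam, the packaging factor of mitochondrial DNA, in CsA against VO, and Polrmt and Tefm in CsA against Sham; for replication they were Ssbp1 and Exog, and Top3a and Dna2. For RNA processing they were Mrm1 and Trmt61b, and Trmt61b and Trmt10c, and for RNA stability Fastk and Fastkd5, and Fastkd2 and Fastk. For regulators they were Esrra and Ppargc1b, and Esrra and Ppard, for abundant proteins they included Vdac3, and Tomm20, and for oxidative phosphorylation Atp5k and Cox8b, and Atp5k and Atp5o. Tfam stood at 14.5, 10.02 and 13.7 FPKM in CsA, at 19.03, 15.2 and 26.3 FPKM in VO and at 9.33, 13.2 and 9.84 FPKM in Sham, so every VO library lay above every other library. No list was tested as a whole.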

How the data were processed

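The authors deposited 1 table of FPKM values per gene and library. Per the submitters' processing notes, which give no roles, the builds were GRCm38 and mm10 and the tools featureCounts 1.5.0-p3, HISAT2 2.0.5, DESeq2 1.20.0, StringTie 1.3.3b and GATK 3.7. Per the labels' protocols, Trizol RNA (1 µg) went into NEBNext Ultra libraries. Annotation release and strandedness are not given in the sources used here.

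FPKM multiplied by gene length was a whole multiple of 1 step per library for 100% of values (tolerance 0.1 fragments), which gave the fragments used for totals, shares and floors; intervals and floors of 3 counts cover counting error only. No 2 replicates agreed within sampling noise (chi-square over degrees of freedom 12.4 to 200.4). FPKM is not a count, so limma 3.58.1 (R 4.3.3) was fitted to log2(FPKM + 1) of the 13477 genes averaging 0.5 FPKM or more, with all 9 libraries, a mean-variance trend and no covariate. P-values were adjusted by Benjamini-Hochberg at 0.05 within each comparison, two-sided. Single values per library were compared by exact two-sided permutation tests. Shared stretches were windows of 50 bases found in transcripts of GENCODE M21. The GC correction removed a loess trend (span 0.3, degree 1) fitted on nuclear genes. Alternatives changed the pseudocount (0.1 or 0.5), the filter (none, or 1 FPKM), the scaling, the trend, the libraries fitted, a replicate block, voom on recovered fragments and GC.

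All 37 rows were accounted for: mRNAs and rRNAs by library, and tRNAs by range, with the 3 of highest mean, those past the test and those with a library at 0 named; of each nuclear list, members past the test and the 2 of smallest p per comparison were named. Others, such as mt-Tg and mt-Tl2, were chosen after their values were seen. 1 gene named by this rule is not reported here. Members and lists were chosen with earlier results of these data known.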

Additional observations from a re-analysis of the deposited data

How the results depend on the processing

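For VO against Sham, the count of mitochondrial genes called (5) was 0 with no filter on low values, with only the 2 groups compared, with a replicate block, with the GC trend removed and without the 3 libraries high in Myl7, and 0 to 7 with single libraries left out. Over the same settings the count over all genes (642) was 0, 0, 1, 0 and 3 (0 to 2032 with single libraries left out), and it was 1010 by voom. The count over the nuclear lists (7) was 0 in those 5 settings, 12 with a mean of at least 1 FPKM, 11 rescaled without mitochondrial genes, 14 by voom and 0 to 35 with single libraries left out. Leaving out the Myl7-high libraries leaves 1 Sham library, assumed to vary like the other groups. For CsA against VO and CsA against Sham, the mitochondrial and list counts remained 0; over all genes they were 0 to 1 and 0 to 3 with single libraries left out, and 3 in CsA against Sham without the Myl7-high libraries. The settings with the Myl7-high libraries left out, the GC trend removed, voom, the nuclear copies added to the share and the rRNA ratio over unshared mRNAs were chosen after seeing the data. The cause of these changes was not tested.

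The log2 ratio of rRNA to mRNA ranged from -0.13 to 0.65 (VO minus Sham), -0.74 to 0.0377 (CsA minus VO) and -0.19 to 0.00145 (CsA minus Sham) with single libraries left out, and was 0.0234 in the last without the Myl7-high libraries. The ratio of mt-Nd6 to the other mRNAs ranged from 0.39 to 0.51 in VO minus Sham and from -0.0268 to 0.21 in CsA minus Sham. The tRNA ratio in VO minus Sham ranged from -0.25 to 0.18 and was 0.11 without the Myl7-high libraries. By voom the VO against Sham log2 fold changes of mt-Nd6 and mt-Nd2 were 0.0587 and 0.0523; with single libraries left out they ranged from -0.29 to 0.35 and -0.29 to 0.30, and that of mt-Rnr1 from -0.33 to 0.20. The differences in mitochondrial share kept their sign in all 12 alternatives each, but CsA and VO overlapped when the share was a percent of summed FPKM.

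The deviations of same-numbered VO and Sham libraries from their group means correlated at -0.04, 0.06 and -0.04. Those of CsA and VO correlated at 0.24, -0.09 and 0.05, and those of CsA and Sham at -0.21, -0.40 and -0.25. Not every library correlated best with its own number. Deviations from a mean of 3 libraries depend on one another, so these values cannot decide whether replicate numbers pair the libraries. With the replicate block 0 mitochondrial genes and 1 gene in all were called in VO against Sham. The planned edgeR and DESeq2 fits on recovered fragments were not run, and voom on those fragments was used in their place. Depth limits tRNA rows with few fragments, where 3 counts correspond to 2.49 to 3.87 FPKM.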
